A study of Mus musculus with 6 samples.

Results

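Transforming growth factor beta (TGF-beta) signalling was described through 10 genes, chosen by name for their place in the pathway: the ligand gene Tgfb1, the receptor genes Tgfbr1 and Tgfbr2, the signal transducers Smad2, Smad3 and Smad4, the inhibitory SMAD Smad7 and the repressors Ski, Skil and Tgif1. They were chosen with earlier results of these data known. All 10 were found among the 40202 genes listed, and all 10 passed the filter for the test, a mean of at least 10 normalised reads over the libraries, as did 14079 genes in all. The cells were BV2, an immortalised mouse microglial line of C57BL/6 background. The 3 control samples were untreated, and the 3 FL-ApoE4 samples had human full-length apolipoprotein E4, which carries lipids, added at 25 µg/ml for 5 h. The labels state neither whether controls received the vehicle of the protein nor whether replicates were separate cultures, so the p-values reflect the variation among these samples alone, and that variation may be technical. The question was how the series' comparison, untreated against treated with the uncleaved protein, looks within this pathway.

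TGF-beta is secreted in a latent form and, once released, binds the type II receptor (Tgfbr2), which recruits and phosphorylates the type I receptor (Tgfbr1). The type I receptor then phosphorylates SMAD2 and SMAD3, which enter the nucleus with SMAD4 and bind DNA with partner factors. SMAD7 blocks the activated receptor, and SKI, SnoN (encoded by Skil) and TGIF1 repress SMAD-dependent transcription. Smad7 and Skil are themselves known targets of the pathway, which makes them its feedback arm. In the brain, TGF-beta is known as a signal that microglia need for their mature, homeostatic expression programme.

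The 250 bases upstream of the annotated start of the ligand and the receptor genes are shown because these 3 genes were each higher in every FL-ApoE4 library than in every control. The sequences are from RefSeq (GRCm38.p6), 5′ to 3′ on the strand of the gene, at chr7:25686752-25687001, plus strand, for Tgfb1, chr4:47352972-47353221, plus strand, for Tgfbr1 and chr9:116175364-116175613, minus strand, for Tgfbr2. Capitals mark GC boxes (GGGCGG on either strand), the letters bound by SP1-type factors. For Tgfbr1 the first of its 2 listed starts was used.
Tgfb1: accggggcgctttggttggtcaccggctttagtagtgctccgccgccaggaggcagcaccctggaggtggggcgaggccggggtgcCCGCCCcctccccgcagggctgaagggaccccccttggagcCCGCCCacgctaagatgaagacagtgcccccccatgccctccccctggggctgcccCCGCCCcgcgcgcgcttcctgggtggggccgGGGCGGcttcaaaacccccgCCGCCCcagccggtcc
Tgfbr1: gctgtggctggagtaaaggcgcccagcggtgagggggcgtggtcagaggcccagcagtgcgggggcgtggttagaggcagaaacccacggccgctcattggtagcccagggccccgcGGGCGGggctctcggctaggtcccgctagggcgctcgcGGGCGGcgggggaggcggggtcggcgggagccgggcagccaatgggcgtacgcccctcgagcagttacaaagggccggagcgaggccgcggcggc
Tgfbr2: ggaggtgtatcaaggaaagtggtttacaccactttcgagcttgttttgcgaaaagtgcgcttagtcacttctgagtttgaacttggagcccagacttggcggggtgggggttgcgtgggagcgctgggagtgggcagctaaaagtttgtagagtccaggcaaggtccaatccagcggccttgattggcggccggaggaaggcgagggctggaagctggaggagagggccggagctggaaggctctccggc
The windows of Tgfb1 and Tgfbr1 were GC-rich (75.2% and 74.8% G or C), that of Tgfbr2 less so (58.4%), against a median of 52.4% over all 32841 windows of the same length. Tgfb1 held 5 GC boxes and Tgfbr1 2, whereas Tgfbr2 held none. Of all windows, 32.7% held at least 1. The SMAD box CAGAC (or GTCTG on the other strand), which 42.2% of all windows held, was found once in Tgfbr2, at position -160 from the start, and not in the windows shown for Tgfb1 and Tgfbr1. The window of the second listed Tgfbr1 start, not shown, differed from the first, with 52.8% G or C, no GC box and 1 SMAD box at -203, and the data do not say which start the cells used. The palindrome GGCGCC, a GC-rich element that SMADs can also bind and that 9.59% of windows held, was found once in Tgfbr1, at -233. The AP-1 letters TGACTCA (or TGAGTCA), in 4.46% of windows, were in none of the 3. These matches describe letters in the windows, and binding was not measured. Of the 10 genes, 6 were matched to such windows. The other matched genes, not shown, were Ski, Smad3 and Tgif1. Ski had 87.6% G or C with 5 GC boxes, and Smad3 69.2% with 2. The Tgif1 windows ran from 38% with 0 GC boxes to 69.6% with 5. The groups overlapped for Ski and Smad3, and Tgif1 was lower with FL-ApoE4. A link between the letters and the differences was not tested.

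The libraries held 45700128 to 54965393 reads assigned to genes, and the smallest count of reads behind a member's value was 442 (Smad3), for which counting alone gives an SD of 4.76%, against 0.913% for Tgfb1 at its lowest. Control replicate 1 stood apart from the other controls, its reads departing from those of control replicates 2 and 3 by 64.1 and 71.9 in chi-square per gene, where these other controls departed from each other by 4.85. FL-ApoE4 replicate 1 stood apart less, by 21.4 and 19.9 from the other treated libraries, which departed from each other by 4.39. Control replicate 1 was the lowest or the highest of the 6 libraries for 9 of the 10 genes, against 51.5% of all genes tested. The exception was Tgfb1. In FL-ApoE4 replicate 1, deviations from the other treated libraries correlated with transcript length at -0.46 (Spearman, a description across 12959 genes within 1 library), and the 10 genes lay a median of 0.10 (log2) below those libraries. In control replicate 1, set against the other controls, the correlation was weaker (-0.16) and the median deviation of the 10 genes alike (-0.10). Values are therefore given with all 6 libraries and without control replicate 1, and those of the members also without FL-ApoE4 replicate 1. The fit without control replicate 1 rests on 2 controls that were very alike, so its p-values may be too small. All 12 markers of microglia and macrophages were expressed, Csf1r, the receptor for the growth factor microglia depend on, at 45849 to 57740 normalised reads. Their summed level was 255418 to 257606 normalised reads in controls and 275807 to 284115 with FL-ApoE4, and its part in the values below was not tested. Defining markers of other cell types were at or near 0, among them the astrocyte gene Aqp4 (listed at 0 in all libraries), the neuronal gene Snap25 (at most 1.1 normalised reads), the oligodendrocyte gene Mog (at most 1.0), the endothelial gene Cldn5 (at most 1.9) and the fibroblast gene Col1a2 (at most 0.9). Of 42 such markers on 6 lists 13 passed the filter, with Flt1 (5012 to 6619), Kdr (2981 to 4750) and Mbp (1059 to 1191 normalised reads) the highest.

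No member of the pathway core passed the test, and the differences were small. On average the ligand and both receptors were higher with FL-ApoE4, Skil and Tgif1 lower, and Smad7 nearly level. By limma with Benjamini-Hochberg adjustment over 14079 genes, 0 of the 10 members were called, where the background was 0% of genes, and edgeR (background 0%) and DESeq2 (background 2.63%) also called 0 members. At an unadjusted p under 0.05 there were 4 members, 2 higher (Tgfbr1, Tgfbr2) and 2 lower (Skil, Tgif1), against 13.1% of all genes (6.81% higher and 6.33% lower). Without control replicate 1 limma again called 0 of the 10, where 4.62% of all genes were called (2.93% higher and 1.69% lower). In that fit 4 had an unadjusted p under 0.05, against 19% of all genes. These were Tgfb1, Tgfbr1 and Tgfbr2 (higher) and Tgif1 (lower), so Tgfb1 entered the set and Skil left it. The authors' deposited table gave no adjusted p under 0.05 for any of the 10, and 2.85% of genes with an adjusted p were under it. In bulk RNA a change in the share of cells that express a gene and a change in its RNA per cell cannot be told apart.

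The groups did not overlap for 5 of the 10 members, 3 higher (Tgfb1, Tgfbr1, Tgfbr2) and 2 lower (Skil, Tgif1) with FL-ApoE4, where 21.9% of all genes did not overlap (11.1% higher and 10.9% lower). The median log2 difference over the 10 was 0.06, beside 0.0011 over all genes tested, and became -0.0096 without control replicate 1. Of the 10, 6 were positive and 4 negative with all libraries, and 5 and 5 without that control. The difference was smaller in size without control replicate 1 for 8 of the 10. Among those that kept their sign, it was smaller by more than 1.5 times for Tgfbr1, Tgfbr2, Ski and Skil. Without FL-ApoE4 replicate 1, limma called 0 of the 10 (background 0%), and no member changed sign. In that fit the log2 differences were 0.08 for Tgfb1, 0.28 for Tgfbr1, 0.37 for Tgfbr2, -0.045 for Smad2, 0.18 for Smad3, 0.04 for Smad7, 0.32 for Ski, -0.17 for Skil and -0.14 for Tgif1. That of Smad4 was -0.06, smaller by more than 1.5 times than with all libraries.

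**Figure D1:**
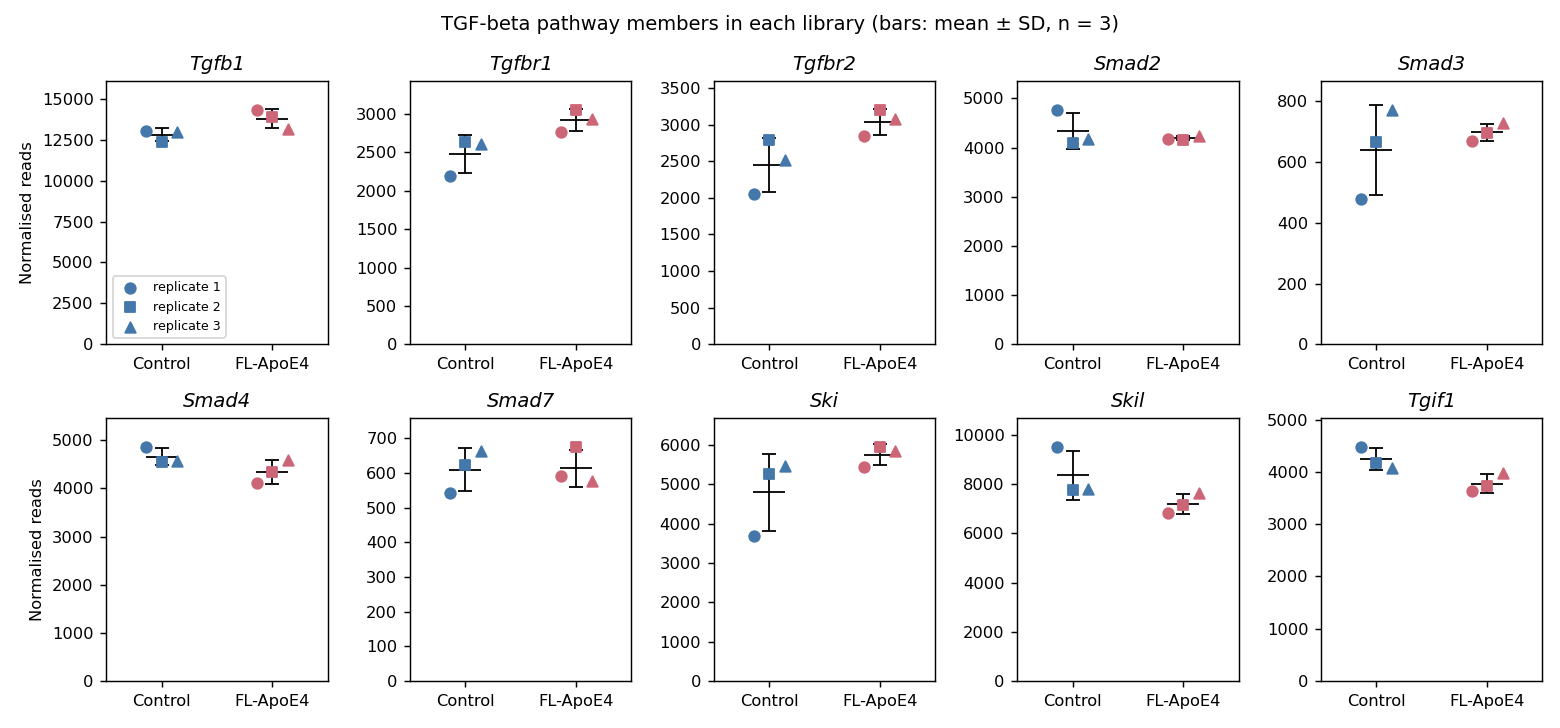
Normalised reads (vertical axes, from 0, a scale of its own for each gene) of the 10 members in 3 control and 3 FL-ApoE4 libraries, with symbols for replicate numbers and bars for mean ± SD (n = 3). For Ski and Smad3 the first control lies well below the other 5 libraries, while for Tgfb1 all libraries lie between 12337 and 14305.

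Tgfb1, the ligand gene, was at 13042, 12337 and 13007 normalised reads in control replicates 1 to 3 and at 14305, 13890 and 13165 in FL-ApoE4 replicates 1 to 3. The lowest treated library lay just above the highest control. The log2 difference was 0.11 ± 0.05 (SE; limma adjusted p = 0.436), a fold of 1.08 with a 95% interval of 0.991 to 1.17. Tgfb1 was the one member for which control replicate 1 lay close to the other controls (0.04 above them on the log2 scale), and without that library the difference was 0.12 ± 0.05 (adjusted p = 0.262). Of the 10 genes it had the smallest SD over the 6 libraries relative to its mean, 5.27%, beside 15.7% for Ski, the widest.

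The receptor genes had their lowest value in control replicate 1 and their highest in FL-ApoE4 replicate 2. Tgfbr1, the type I receptor, was at 2198, 2632 and 2617 normalised reads in controls and at 2769, 3050 and 2941 with FL-ApoE4. Its log2 difference was 0.24 ± 0.08 (limma adjusted p = 0.291). Control replicate 1 was the lowest library, 0.26 (log2) below the other controls, and without it the difference was 0.15 ± 0.06 (adjusted p = 0.194). When limma weighted each library by its estimated quality, Tgfbr1 was called (log2 difference 0.19, adjusted p = 0.0314), a setting under which 11% of all genes were called.

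Tgfbr2, the type II receptor that binds the ligand first, was at 2056, 2790 and 2511 normalised reads in controls and at 2841, 3197 and 3078 with FL-ApoE4. The second control and the first treated library were close, and control replicate 1 was again the lowest. The log2 difference was 0.32 ± 0.11 (limma adjusted p = 0.291), a fold of 1.25 with an interval of 1.04 to 1.49, the largest difference of the 10. With control replicate 1 omitted it was 0.20 ± 0.07 (adjusted p = 0.17), a fold of 1.15.

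The receptor-regulated transducers gave no difference that could be told from the spread. Smad2 was at 4758, 4093 and 4164 normalised reads in controls and at 4182, 4153 and 4238 with FL-ApoE4, so that 5 of the 6 libraries lay within 4093 to 4238 and control replicate 1 alone lay above. Its log2 difference of -0.05 ± 0.07 (limma adjusted p = 0.839) became 0.02 ± 0.05 without that library. Smad3 was at 480, 668 and 771 normalised reads in controls and at 670, 694 and 728 with FL-ApoE4. The controls spanned the treated libraries on both sides. Its log2 difference of 0.15 ± 0.16 (adjusted p = 0.762) became -0.04 ± 0.08 without control replicate 1, in which Smad3 lay 0.58 (log2) below the other controls, the widest such gap among the 10.

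Smad4, the partner shared with bone morphogenetic protein (BMP) signalling, was at 4860, 4542 and 4567 normalised reads in controls and at 4102, 4345 and 4599 with FL-ApoE4. The third treated library lay above control replicates 2 and 3, so the groups overlapped. On the log2 scale Smad4 differed by -0.10 ± 0.06 (limma adjusted p = 0.537), or by -0.07 ± 0.06 with control replicate 1 omitted.

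Smad7, the inhibitory SMAD that TGF-beta itself induces, was at 541, 624 and 664 normalised reads in controls and at 590, 675 and 577 with FL-ApoE4. The groups overlapped, although control replicate 1 lay below every treated library and FL-ApoE4 replicate 2 above every control, with the mean at 610 ± 63.0 and 614 ± 53.3 (SD, n = 3 each). Smad7 differed by 0.01 ± 0.10 on the log2 scale (limma adjusted p = 0.978). Its 95% interval in fold terms was 0.851 to 1.19. Without control replicate 1 the value was -0.07 ± 0.09, with an interval of 0.826 to 1.10.

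The repressor genes did not share a direction. Ski was at 3673, 5259 and 5454 normalised reads in controls and at 5444, 5945 and 5846 with FL-ApoE4. Control replicate 1 was far below the other 5 libraries, and the first treated library lay just below the third control, so the groups overlapped. The log2 difference of 0.28 ± 0.14 (limma adjusted p = 0.455) became 0.10 ± 0.06 without that control, a reduction of more than 1.5 times.

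Skil, which encodes the SKI relative SnoN, was at 9518, 7758 and 7825 normalised reads in controls and at 6833, 7137 and 7639 with FL-ApoE4. Control replicate 1 was the highest library, the opposite of its place for Ski, and the third treated library lay just below the lowest control. Skil differed by -0.21 ± 0.09 on the log2 scale (limma adjusted p = 0.369), a fold of 0.864 with an interval of 0.748 to 0.997. With control replicate 1 omitted it was -0.11 ± 0.06 (adjusted p = 0.322).

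Tgif1, a homeobox repressor that binds SMAD2 and SMAD3, was at 4480, 4180 and 4087 normalised reads in controls and at 3628, 3731 and 3978 with FL-ApoE4. All treated libraries lay below all controls. The log2 difference was -0.17 ± 0.06 (limma adjusted p = 0.298), and it was -0.13 ± 0.06 (adjusted p = 0.254) once control replicate 1 was omitted.

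**Figure D2:**
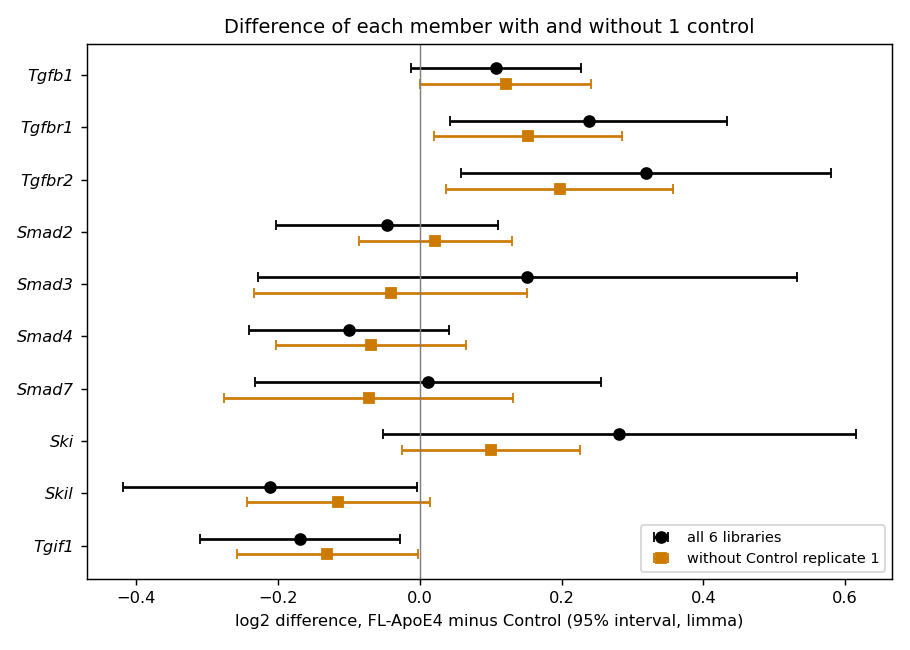
Log2 difference of FL-ApoE4 minus control (horizontal axis) with its 95% interval from limma for each member, with all 6 libraries (circles) and without control replicate 1 (squares). With all libraries the intervals of Tgfbr1, Tgfbr2, Skil and Tgif1 exclude 0 before adjustment, and no adjusted p is below 0.291.

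Levels of the 10 genes were compared per length, as normalised reads per kb of merged exons, which is a scale of level and not of difference. Tgfb1 stood highest, at 2538 ± 78.8 per kb in controls and 2734 ± 115 with FL-ApoE4 (SD, n = 3 each), above 91.9% of 12959 tested genes with a known length. The level of Smad4 was 1254 ± 47.6 and 1171 ± 66.9 per kb. The common partner SMAD thus stood above the receptor-regulated ones, with Smad2 at 494 ± 41.6 and 477 ± 4.94 per kb and Smad3 at 115 ± 26.6 and 126 ± 5.24 per kb. Smad2 was above Smad3 in every library.

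The receptors lay near the middle of all genes on this scale of level, Tgfbr1 at 380 ± 37.7 and 447 ± 21.7 per kb and Tgfbr2 at 300 ± 45.3 and 371 ± 22.1 per kb, above 56.0% and 51.3% of genes. Tgfbr1 exceeded Tgfbr2 per kb in 6 of 6 libraries. The repressors lay between Smad4 and Smad2, with Ski at 862 ± 176 and 1033 ± 47.7 per kb, Skil at 863 ± 103 and 743 ± 42.0 per kb and Tgif1 at 755 ± 36.5 and 672 ± 32.0 per kb. Smad7 was low, at 135 ± 13.9 and 136 ± 11.8 per kb.

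In the order Tgfb1, Smad4, Ski, Skil, Tgif1, Smad2, Tgfbr1, Tgfbr2, Smad7, Smad3, each gene exceeded the next in 6 of 6 libraries except for 2 pairs, Ski over Skil and Smad7 over Smad3, which held in 5 of 6. Ski lay below Skil in control replicate 1 (660 against 982 per kb). Smad7 lay below Smad3 in FL-ApoE4 replicate 3 (128 against 131 per kb). Neither order was tested. With the longest annotated transcript as the length, Tgif1 moved to the third place and Ski to the fifth, and the other places stayed, so the order among the 3 repressors depends on the length used. The levels themselves also depended on it, the mean over the 6 libraries going from 2636 to 5166 per kb for Tgfb1 and from 714 to 1276 per kb for Tgif1.

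**Figure D3:**
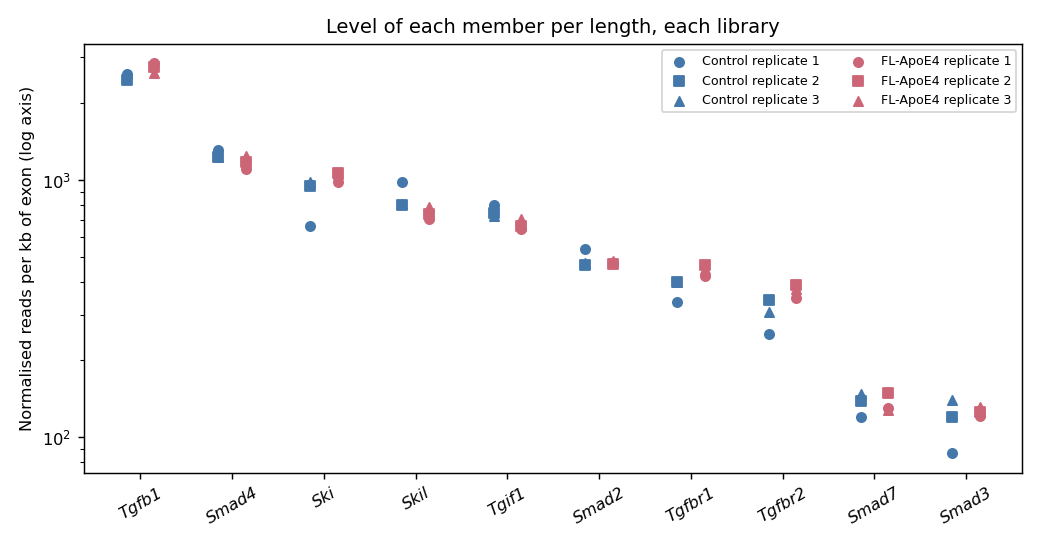
Normalised reads per kb of merged exons (vertical log axis) of each member in each of the 6 libraries, ordered by the mean. Tgfb1 lies at 2447 per kb or more in every library and Smad3 and Smad7 at 149 or less, while Ski and Skil change places in control replicate 1.

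Other genes of the pathway were read from 9 lists, 157 genes with a row in the table and 115 past the filter, with genes on more than 1 list counted once. The lists were chosen with earlier results of these data known. Their shares beside those of all genes therefore cannot show a response of the pathway. With all libraries limma called 0 of the 115, and 27 (23.5%) had an unadjusted p under 0.05, beside 13.1% of all genes. In the same libraries edgeR called 0 and DESeq2 called 8 (6.96%, beside 2.63% of all genes), among them Csf1r, Cx3cr1, Gdf15, Itgav, Junb, Maf and Tmem119. Without control replicate 1 limma called 13 (11.3%), 6 higher and 7 lower, beside 4.62% of all genes (2.93% higher and 1.69% lower).

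Few other ligands were expressed. Of 19 ligand and antagonist genes, 5 were listed at 0 in all libraries and 3 passed the filter. Gdf15, a distant family member induced by cell stress, was at 5501, 2235 and 1919 normalised reads in controls and at 775, 749 and 1088 with FL-ApoE4. Every treated library lay below every control, and control replicate 1 was the highest. On the log2 scale it differed by -1.74 ± 0.37 (limma adjusted p = 0.155), and Gdf15 fell by 1.27 ± 0.15 on the log2 scale in the fit that omits control replicate 1 (adjusted p = 0.0032). Gdf11, an activin-like ligand, overlapped between the groups, at 0.29 ± 0.18 with all libraries (adjusted p = 0.547) and 0.12 ± 0.15 without control replicate 1 (adjusted p = 0.708).

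Among genes that store and release the latent ligand, 13 of 19 were tested, with a median log2 difference of -0.08 (0.05 without control replicate 1). Itgav, the integrin alpha V chain that binds latent TGF-beta, was at 14044, 10965 and 9850 normalised reads in controls and at 7869, 8408 and 9321 with FL-ApoE4 (log2 difference -0.43 ± 0.13, limma adjusted p = 0.233). DESeq2 called Itgav with all libraries (adjusted p = 0.040), and without control replicate 1 limma gave -0.29 ± 0.08 (adjusted p = 0.0793). Furin, the protease that cleaves the TGF-beta precursor, had -0.25 ± 0.09 (adjusted p = 0.291), and -0.15 ± 0.05 without that control (adjusted p = 0.17). Mmp14, a membrane protease, was low, at 74.9, 28.5 and 34.9 normalised reads in controls and 97.0, 72.3 and 75.4 with FL-ApoE4. Control replicate 1 lay among the treated libraries. With all libraries the log2 difference was 0.92 ± 0.35 (limma adjusted p = 0.32), and without that control Mmp14 rose by 1.33 ± 0.20 (adjusted p = 0.0089).

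Of 12 other receptor genes 10 were tested, and their median log2 difference of -0.0060 turned to 0.038 without control replicate 1. By limma 0 were called with or without that control, and 0 by edgeR or DESeq2 with all libraries. An unadjusted limma p under 0.05 was found for 3 and 2 of the 10, beside 13.1% and 19% of all genes. Bmpr1a, a BMP type I receptor, had a log2 difference of -0.15 ± 0.05 (limma adjusted p = 0.267) and Acvr2a, an activin type II receptor, -0.20 ± 0.07 (adjusted p = 0.306), and without control replicate 1 they had -0.15 ± 0.05 and -0.19 ± 0.08. These values are of the opposite sign to those of Tgfbr1 and Tgfbr2. The difference between them was not tested.

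Of 10 other SMAD and adaptor genes 9 were tested, and their median log2 difference of 0.0079 turned to -0.050 without control replicate 1. Smad6, the inhibitory SMAD of the BMP branch and the closest relative of Smad7, was at 348, 506 and 507 normalised reads in controls and at 580, 632 and 561 with FL-ApoE4 (log2 difference 0.40 ± 0.15, limma adjusted p = 0.328). Every treated library was above every control, and without control replicate 1 the value was 0.22 ± 0.08 (adjusted p = 0.182). Ppm1a, a phosphatase reported to act on SMAD2 and SMAD3, had -0.17 ± 0.06 (adjusted p = 0.269), and -0.12 ± 0.05 without that control. Dab2, an endocytic adaptor that binds the receptors, overlapped between the groups with all libraries (-0.20 ± 0.11, adjusted p = 0.51) but in the fit that omits control replicate 1 it fell by 0.33 ± 0.07 (adjusted p = 0.033).

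The 15 ubiquitin ligases and deubiquitinases of the pathway were all tested. Of these, 13 had negative differences, as did 6994 of all 14079 genes tested. The median of the 15 was -0.05 (-0.07 without control replicate 1) beside 0.0011 over all genes. None was called by limma with or without control replicate 1, or by edgeR or DESeq2 with all libraries, and 0 and 1 had an unadjusted limma p under 0.05, beside 13.1% and 19% of all genes. The 2 of lowest p were Rlim (-0.17 ± 0.08) and Nedd4l (-0.17 ± 0.09), with limma adjusted p of 0.413 and 0.50, and without control replicate 1 they were smaller by more than 1.5 times, at -0.080 ± 0.044 and -0.071 ± 0.065. The 12 genes of TGF-beta signalling outside SMADs, all tested, were 6 positive and 6 negative (median -0.03, and -0.01 without control replicate 1). Mapk14, the p38 alpha kinase, was at 0.28 ± 0.11 (limma adjusted p = 0.328), and at 0.15 ± 0.05 without that control, smaller by more than 1.5 times. Map2k3, a kinase that activates it, was at -0.16 ± 0.06 (adjusted p = 0.321) and at -0.19 ± 0.06 in those fits.

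Among 21 SMAD partner and corepressor genes 19 were tested, with a median log2 difference of 0.064 that became 0.00036 without control replicate 1. In the latter fit 4 were called, 3 higher and 1 lower, beside 2.93% and 1.69% of all genes. Maf, a transcription factor of macrophages, was at 925, 1580 and 1632 normalised reads in controls and at 2416, 2421 and 2153 with FL-ApoE4. Control replicate 1 was the lowest library and all treated libraries lay above all controls. The log2 difference was 0.80 ± 0.20 (limma adjusted p = 0.198), and without control replicate 1 Maf rose by 0.53 ± 0.07 (adjusted p = 0.0041). Runx1, a lineage factor that binds SMADs, was at 0.23 ± 0.06 with all libraries (adjusted p = 0.19) and rose by 0.26 ± 0.06 without control replicate 1 (adjusted p = 0.043). Sin3a, a scaffold of histone deacetylase complexes, was at -0.23 ± 0.08 (adjusted p = 0.321) and fell by 0.30 ± 0.07 (adjusted p = 0.047) in the same fits.

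Genes known to be induced or repressed by TGF-beta in many cell types had a median log2 difference of -0.21 over the 19 of 27 that were tested (-0.14 without control replicate 1), with 7 positive and 12 negative. All genes tested split into 7085 positive and 6994 negative. Of the 19, 3 were called lower and 0 higher with control replicate 1 omitted, beside 1.69% and 2.93% of all genes. 

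Cdkn1a, the p21 cell cycle inhibitor, which p53 also controls, was at 11034, 6078 and 5182 normalised reads in controls and at 3769, 3335 and 3917 with FL-ApoE4 (log2 difference -0.94 ± 0.25, limma adjusted p = 0.205). With that control omitted it fell by 0.61 ± 0.09 (adjusted p = 0.0065). Junb, an AP-1 subunit that many growth and stress signals induce, had -0.60 ± 0.11 (adjusted p = 0.112) and fell by 0.47 ± 0.06 (adjusted p = 0.0036). Many signals are known to act on both genes, and the cause of the falls was not tested. Smad7 and Skil, which are also targets, were at -0.07 ± 0.09 and -0.11 ± 0.06 in the same fit and were not called.

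Of 23 genes that microglia are known to express in dependence on TGF-beta, 5 were listed at 0 and 15 were tested, 8 positive and 7 negative, with a median log2 difference of 0.01 (0.03 without control replicate 1). Of these, 2 were called higher and 1 lower with control replicate 1 omitted, beside 2.93% and 1.69% of all genes. Cx3cr1, the fractalkine receptor, was at 106, 103 and 108 normalised reads in controls and at 239, 279 and 219 with FL-ApoE4. All treated libraries were above all controls, with a log2 difference of 1.20 ± 0.12 (limma adjusted p = 0.0666), and the gene rose by 1.20 ± 0.13 with control replicate 1 omitted (adjusted p = 0.0023). Tmem119, a surface protein typical of microglia, was at 251, 492 and 512 in controls and at 732, 684 and 702 with FL-ApoE4. It had a difference of 0.82 ± 0.25 (adjusted p = 0.242) and rose by 0.49 ± 0.07 without control replicate 1 (adjusted p = 0.0081). Entpd1, an ectonucleotidase, fell by 0.33 ± 0.07 in that fit (adjusted p = 0.026) and overlapped between the groups with all libraries (-0.20 ± 0.12, adjusted p = 0.516). Csf1r had 0.22 ± 0.05 with all libraries (adjusted p = 0.189) and 0.20 ± 0.06 without control replicate 1 (adjusted p = 0.083).

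**Figure D4:**
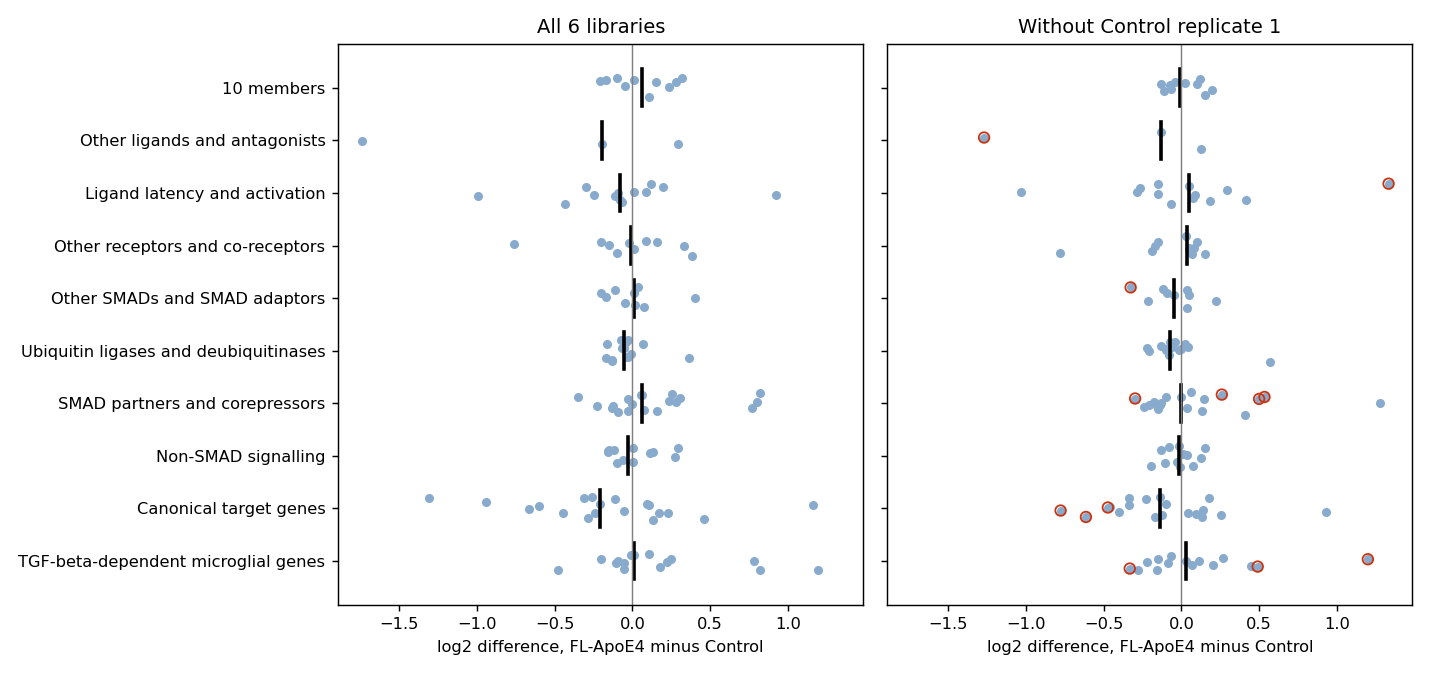
Log2 difference of FL-ApoE4 minus control (horizontal axes) for each tested gene (points) of the 10 members and of 9 lists of other pathway genes, with the list median as a vertical bar, using all 6 libraries (left) and without control replicate 1 (right). Red circles on the right mark the 13 genes called by limma over all genes, none of them among the 10 members, whose points lie within -0.21 to 0.32 on the left.

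The genes whose pattern over the 6 libraries was most like that of a member were Tmem42, Irf4 and Ak4 for Tgfb1 (Pearson r 0.992, 0.990 and 0.982 of log2 values), Zfp248, Gm39876 and Meak7 for Tgfbr1 (0.998, 0.997 and 0.997) and Zfp114, Bbs1 and Ap2a1 for Smad7 (0.992, 0.991 and 0.979). These are the closest of all tested genes over only 6 libraries and are given as a description. Control replicate 1 was the lowest library for Tgfbr1 and Smad7, though not for Tgfb1.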

How the data were processed

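The deposited table of reads gives, for every gene, a normalised signal in each library, made by the authors. The submitters' processing notes name HISAT2 2.2.1, HTSeq, DESeq2 1.30.1 and FastQC 0.11.8, and the build GRCm39, without roles or settings. Within each library 100% of values were whole multiples of the smallest (tolerance 0.01), so whole reads were recovered for edgeR and DESeq2. The authors' deposited table of statistics holds, per gene, a log2 fold change with its SE, the score that is their quotient, and the p-value before and after adjustment. The strand setting of the counting was not found in the labels, so overlapping genes are uncertain.

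Differences were tested with limma 3.58.1 in R 4.3.3, with a variance trend on log2(value + 1), two-sided, group as the only term, for 14079 genes with a mean of at least 10, adjusted by Benjamini-Hochberg over all of them (threshold 0.05). On this scale the change of a gene with few reads is understated. Alternatives were edgeR 4.0.16 (quasi-likelihood, TMM), DESeq2 1.42.0 and the settings in the closing section. Lengths are from GENCODE M21 (GRCm38), used without coordinates. The members and lists were chosen with earlier results of these data known. Genes named were the 10 members, the 2 of lowest p in each other list and list genes called with or without control replicate 1; for likeness of pattern, the 3 genes closest to Tgfb1, Tgfbr1 and Smad7; and marker genes. Of the genes this rule names, 2 are not reported here.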

Additional observations from a re-analysis of the deposited data

How the results depend on the processing

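Over 21 alternatives, the sign of Tgfb1, Tgfbr1, Tgfbr2, Smad4, Ski, Skil and Tgif1 did not change, and Tgfbr1 with array quality weights was the one member called in any of them. The ranges of the log2 difference were 0.08 to 0.14 for Tgfb1, 0.15 to 0.28 for Tgfbr1, 0.195 to 0.42 for Tgfbr2, -0.14 to -0.043 for Smad4, 0.099 to 0.39 for Ski, -0.26 to -0.10 for Skil and -0.21 to -0.12 for Tgif1. The number of members called went from 0 to 1 with array quality weights and was 0 in every other setting. Smad2, Smad3 and Smad7 changed sign. With 1 library left out, limma gave -0.087 to 0.022 for Smad2, -0.041 to 0.30 for Smad3 and -0.072 to 0.076 for Smad7, all 3 turning without control replicate 1 and Smad7 also without FL-ApoE4 replicate 2. Without control replicate 1 they were 0.025, -0.040 and -0.065 by edgeR and 0.019, -0.046 and -0.071 by DESeq2. Array quality weights turned Smad2 to 0.017 and Smad7 to -0.017, and quantile normalisation turned Smad7 to -0.012. The cause was not tested. Over all genes the count of calls went from 0 to 370 with DESeq2, 1551 with array quality weights, 1 with no filter beyond a mean above 0, 691 with edgeR and 959 with DESeq2 without control replicate 1, and between 0 and 651 with limma when 1 library was left out (651 without control replicate 1, 1 without FL-ApoE4 replicate 2 and 0 without any of the others). With a replicate block limma called 0 genes and 0 members. Deviations of same-numbered samples correlated at 0.13, 0.07 and -0.03 over genes, and those of differently numbered samples at -0.160 to 0.165. The labels do not say that a number marks a shared culture or day. Counting error, an SD of at most 4.76% for a member's value in any library, sets a floor to the precision, largest for Smad3 and Smad7.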

Other observations

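Ratios between members of a pair within a library do not depend on how libraries are scaled. For 3 pairs chosen after the values were seen, they were taken per kb. Their p-values are therefore a description and cannot serve as evidence. Ski had already been seen to be higher on average with FL-ApoE4 and Skil lower, so the separation of their ratio is not independent of the choice. The share of other gene pairs that separate is not given. The ratio of Ski to Skil, the paralogous SMAD repressors, was 0.673, 1.18 and 1.21 in the controls (in replicate order) and 1.39, 1.45 and 1.33 with FL-ApoE4. Every treated library lay above every control (exact permutation test, two-sided, p = 0.1, the smallest that 3 against 3 allows, and 0.3 adjusted over the 3 pairs). The log2 difference of this ratio was 0.49 with all libraries and 0.21 without control replicate 1. The ratio of Tgfbr2 to Tgfbr1 lay between 0.746 and 0.846 in all 6 libraries (exact permutation p = 0.4, adjusted 0.6), and the groups overlapped. That of Smad3 to Smad2 was 0.160 in control replicate 1 and 0.254 to 0.293 in the other 5 libraries (exact permutation p = 0.8, adjusted 0.8).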
